A study of Homo sapiens with 11 samples.

Results

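The peaks that ZFP36L2 gave over size-matched input were compared between MOLM13 and THP1, a pair of human acute monocytic leukaemia lines. The members are the 67083 rows of the 4 tables of the immunoprecipitates over input, of 686928 rows and clusters in all 8 lists of the series. Rows of any library on 1 strand were joined wherever they overlapped by at least 1 base, which gave 20643 sites, and each site took the gene and region of its strongest row. Each table holds a single immunoprecipitate, scored by the authors against input.

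ZFP36L2 is a zinc finger protein of the TIS11 family. Its members bind AU-rich elements, short runs of A and U of which UAUUUA is the core, mostly in 3' UTRs, and recruit the deadenylation machinery, so that the mRNA is shortened from its tail and decayed. In myeloid cells the family is best known for limiting cytokine and immediate early mRNAs. Enhanced crosslinking and immunoprecipitation (eCLIP) fixes protein to RNA with ultraviolet light, pulls down the protein and sequences the RNA fragments that remain attached.

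Both lines grew in the same medium without treatment, and each gave 2 immunoprecipitates with the antibody ab70775 against ZFP36L2/TIS11D, called replicates 1 and 2. MOLM13 had 2 input libraries and THP1 had 1, of 11 libraries in the series. As background, both lines carry a KMT2A-MLLT3 fusion, MOLM13 an internal tandem duplication of FLT3 and THP1 an NRAS mutation. Each group is a single cell line, so a difference is one between these lines, and the labels do not say that duplicates were separate cultures, so p-values measure a spread that may be technical. A peak needs RNA as well as binding, and a lower RNA level and less binding per RNA cannot be told apart here. Values are given in the order MOLM13 replicate 1, MOLM13 replicate 2, THP1 replicate 1 and THP1 replicate 2.

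Few sites could be read as sequence, because sequence was at hand only for RefSeq promoter windows of 300 bases on GRCh38.p14. Of the 20643 sites, 29 lay wholly inside a window, and 6 of these had a row in all 4 libraries. The core TATTTA, the DNA letters of UAUUUA, was searched on both strands together with the longer element TTATTTATT, which contains it. It stood on the strand of the RNA in 12 of the 29 sites and on the opposite strand in 0, and 9 of the 12 held the longer element. The 30 bases around the element are shown for 4 sites found in all 4 libraries, 1 found in 3, 1 found in both MOLM13 replicates and 1 found in a single THP1 replicate, with TTATTTATT, or TATTTA where the longer element is absent, in capitals.
EIF1B: gaagcgttttcTTATTTATTtccgttttct
PRC1: ttgaagcactaTTATTTATTcttccgctgt
TTBK2: taaaagtgtaaTTATTTATTtaattttccc
HIST1H2BG: ttTATTTAagtgcgttcattctcactgctg
PARVB: acagtatgctgTTATTTATTccaataaaga
FOXP1: tgTTATTTATTgtgtggcggttgcacgctg
KLHL29: ggcctTTATTTATTttttttttcctgcctt
These stretches lie at chr3:40309830-40309859 on the plus strand (EIF1B, a paralogue of a translation start factor), chr15:90966208-90966237 on the minus strand (PRC1, a spindle midzone protein) and chr15:42739081-42739110 on the minus strand (TTBK2, a kinase of cilium assembly). The others lie at chr6:26216662-26216691 on the minus strand (HIST1H2BG, now H2BC8, a histone gene), chr22:44172899-44172928 on the plus strand (PARVB), chr3:71583728-71583757 on the minus strand (FOXP1) and chr2:23618166-23618195 on the plus strand (KLHL29). PRC1, TTBK2 and PARVB are 3' UTR sites, EIF1B and HIST1H2BG 5' UTR sites, and FOXP1 and KLHL29 distal intron sites, by the annotation of the tables. For scale, of 35116 promoter windows cut to the 165 bases of the EIF1B site, 0.450% held TTATTTATT on either strand, and 7.76% held the core.

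At the EIF1B site the log2 fold over input was 6.92, 8.90, 5.75 and 7.95, so that the replicates of a line stood further apart than the lines. The PRC1 site had 6.01, 6.69, 5.66 and 6.86, and TTBK2 had 4.30, 3.30, 3.54 and 3.90. All 3 sites were listed in both lines at overlapping levels. PARVB had no row in MOLM13 replicate 1 and log2 folds of 3.76, 3.88 and 3.33 in the other three libraries, just above the table minimum of 3. The FOXP1 site was listed in MOLM13 only, at 3.10 and 4.18, and KLHL29 in THP1 replicate 1 only, at 3.92, both close to that minimum too.

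The tables held 14432, 14425, 19325 and 18901 rows, which fell into 11502, 10607, 14702 and 14051 sites. Only rows where the log2 fold and the −log10 p both reach 3 are listed, so a site missing from a library is below a threshold there and need not be empty. The fold is the authors' value for each peak. Between 66.6% and 73.5% of the linear folds of a library were whole multiples, within 0.02, of a step that differed between libraries, and a log2 fold of 3 took 10, 19, 17 and 13 such steps. Rows that also reached both thresholds over IgG in the same immunoprecipitate made up 44.9%, 28%, 43.1% and 59.0%, and the part of these differences in the comparisons below was not tested except where values for rows past the IgG thresholds are given. Clusters of any fold over IgG were seen in both replicates for 4 of 10 fixed myeloid markers in MOLM13 and 6 of 10 in THP1, 3 of the 10 having no coordinates, and summed to 40, 44, 43 and 41 clusters. CEBPA had 9, 10, 9 and 9 clusters and CD14 had 0 in each library. The 5 lymphoid and 5 erythroid or megakaryocytic markers summed to 0 or 1 cluster in every library where coordinates were at hand, and none had an enriched site. Coordinates were missing for 3 of the 5 lymphoid and 2 of the 5 erythroid or megakaryocytic markers. Enriched sites were rare among the 10 myeloid markers too, with 2 having one in both replicates of MOLM13 and 1 in both of THP1.

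Of the 20643 sites, 6805 (33.0%) had a row in all 4 libraries, in 3519 genes. Another 914 sites were found in both MOLM13 replicates and in neither of THP1, and 2966 the other way round. The remainder split into 2423 sites in 3 libraries, 1078 in 1 replicate of each line, 2370 in 1 MOLM13 replicate and 4087 in 1 THP1 replicate. In each line the sites of a single replicate outnumbered those found in both of its replicates and not in the other line.

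Within the 3671 genes that had a site in every library, a library shared 82.1% of its sites with the other replicate of its line on average over 4 directed pairs, with a range from 78.9% to 84.0%. Across lines the mean over 8 directed pairs was 74.5%, from 65.8% to 82.8%. The lists differ in length and the direction matters. A MOLM13 library found 79.7% to 82.8% of its sites again in a THP1 library, inside the range of replicates. A THP1 library found 65.8% to 69.4% of its sites again in a MOLM13 library, below the 81.5% and 83.8% that the THP1 replicates gave. Where a site was shared, the strongest rows of both libraries lay close together. The median distance between their centres was 7 bases for the MOLM13 replicates, 7.5 for the THP1 replicates and 7.5 to 8.5 between lines.

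**Figure D1:**
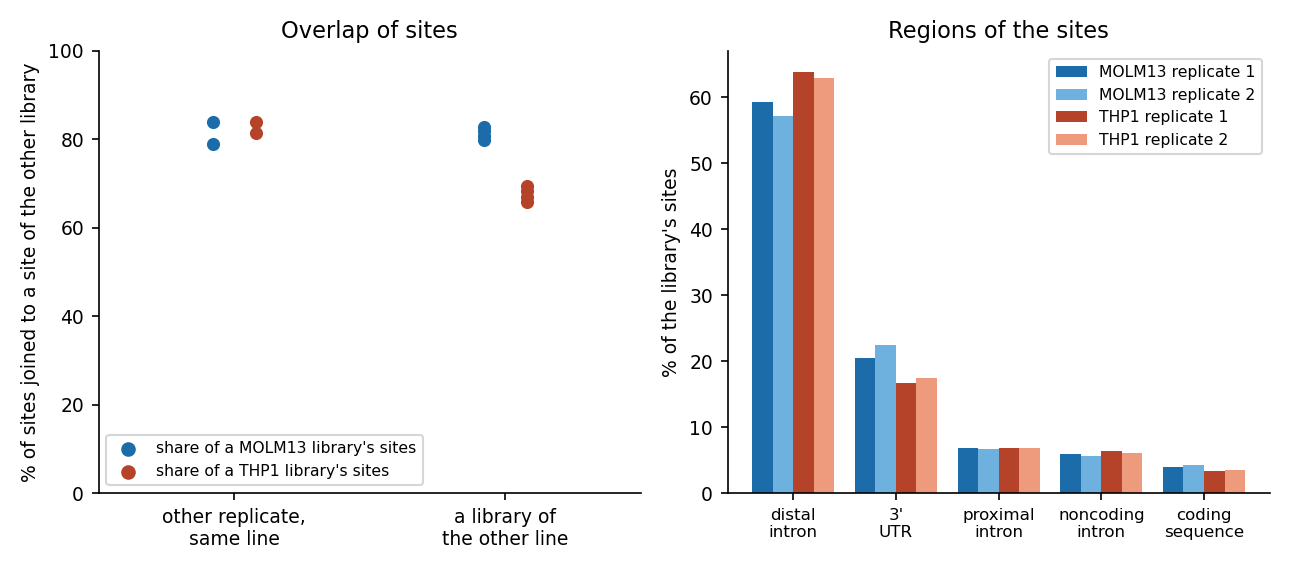
Left, the percentage of a library's sites that were joined to a site of another library, over the 3671 genes with sites in all 4 libraries, each point a directed pair of libraries; THP1 sites were found again less often in MOLM13 (65.8% to 69.4%) than in the other THP1 replicate. Right, the percentage of each library's sites in 5 regions, 1 bar per library; both THP1 bars are lower than both MOLM13 bars in 3' UTRs and higher in distal introns.

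MOLM13 carried a larger share of its sites in 3' UTRs and THP1 a larger share deep in introns. The 3' UTR share was 20.5%, 22.5%, 16.8% and 17.4%, and distal introns, those away from splice sites, held 59.3%, 57.2%, 63.8% and 62.9%. Both differences exceeded the spread between replicates, at −4.39 and 5.10 percentage points for THP1 minus MOLM13. In an exact permutation test the p was 0.333 for each, two-sided, which is the smallest that 2 against 2 libraries can give. Over genes with sites in all 4 libraries the differences were −3.16 and 4.2 points. With rows that also passed over IgG they were −13.0 and 15.2 points, in the same direction. Coding sequence held 3.92%, 4.26%, 3.29% and 3.5%, again without overlap between the lines, while proximal introns did not separate them (6.88%, 6.70%, 6.84% and 6.79%).

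The kinds of site differed in region as well. Of the sites in all 4 libraries, 16.6% were 3' UTR and 65.0% distal intron. The 914 sites of MOLM13 alone were 28.1% 3' UTR and 46.4% distal intron, whereas the 2966 of THP1 alone were 11.2% and 69.1%. Sites in 1 MOLM13 replicate were 33.6% 3' UTR and those in 1 THP1 replicate 18.7%, so in each line the unreproduced sites held more 3' UTR than the reproduced ones.

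Chromosomes also contributed unequally. Chromosome 1 held 9.13%, 9.10%, 11.3% and 11.2% of the sites, chromosome 19 held 6.28%, 6.07%, 4.59% and 4.64%, and chromosome 8 held 5.60%, 5.94%, 4.58% and 4.50%. For each of these the lines did not overlap, with an exact permutation p of 0.333, the smallest possible. That does not set them apart, since of the autosomes and X the lines overlapped only for chromosomes 9, 10, 11, 15 and 22. Chromosome 12 did not overlap either, at a difference of 0.043 points. In genes with sites in all 4 libraries the differences were 1.82 points for chromosome 1, −1.74 for chromosome 19 and −0.98 for chromosome 8. Gene copy number and RNA level along the chromosomes were not tested.

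More genes carried an excess of sites in THP1 than in MOLM13, while the median difference was 0. Of 6549 genes with a site, 4233 had at least 4 sites over the 4 libraries and were tested, and the mean was higher in THP1 for 2014 of them, higher in MOLM13 for 885 and equal for 1334. In limma with Benjamini-Hochberg adjustment 619 genes (14.6%) passed an adjusted p of 0.05, 472 with more sites in THP1 (11.2%) and 147 with more in MOLM13 (3.47%). Site counts are small whole numbers, and 486 of the 619 had identical counts in the replicates of each line, which leaves no variance to test against. With the variance of each gene held at or above that of a difference of 1 site, 261 passed (6.17%), 232 of them higher in THP1 (5.48%) and 29 higher in MOLM13 (0.685%). Both fits called 114 genes. A gene with no site in 1 line met the filter of at least 4 sites through the other line alone. Without and with the floor, this held for 184 of the 472 and 70 of the 232 genes called higher in THP1. In MOLM13 it held for 38 of the 147 and 9 of the 29. Of all tested genes, 216 had no site in MOLM13 and 42 had none in THP1. The difference at such genes follows in part from the filter. The libraries of the lines did not overlap for 1430 genes (33.8%). Without MOLM13 replicate 1 or 2 the unfloored count was 2202 or 2175 and the direction turned, with 694 and 622 higher in THP1 against 1508 and 1553 in MOLM13. Without THP1 replicate 1 or 2 it was 1108 or 1161, with 858 and 916 higher in THP1. The line with a single library adds no spread to these fits. Scaling each library to the same number of sites changed the unfloored calls to 403, of which 252 were higher in THP1 and 151 in MOLM13, and moved the median difference to −0.19 on the log2(sites + 1) scale, toward MOLM13.

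Genes with the most sites illustrate the replicate spread. PVT1, a long noncoding RNA beside MYC, had 35, 36, 30 and 29 sites. SMYD3, a lysine methyltransferase gene, had 13, 13, 36 and 36. NEAT1, the scaffold RNA of paraspeckles, had 7, 51, 11 and 68, so that replicates differed far more than lines. The insulin receptor gene INSR was level at 19, 15, 21 and 21, and CSNK1G2, a casein kinase gene, went the other way with 31, 27, 5 and 9.

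The 10 genes with the largest excess in THP1 had no site in either MOLM13 replicate, and so met the filter through THP1 alone. FOXP2, a forkhead transcription factor, had 18 and 18 sites in THP1, SDK1, an adhesion molecule, had 19 and 16, and FAM135B had 14 and 14. NEGR1, an adhesion protein of neurons, had 15 and 11. CAMK1D, a calcium-dependent kinase, had 11 and 12, NAV3, a microtubule-binding protein, 12 and 11, and PPFIA2, a synaptic scaffold, 11 and 11. The potassium channel gene KCND2 had 12 and 10, PID1 had 11 and 9, and the inositol phosphatase gene INPP4B had 9 and 10. All 10 passed limma with and without the variance floor. With the floor the adjusted p in limma ran from 4.33e-25 (FOXP2) to 3.59e-10 (INPP4B). Without it limma gave FOXP2 1.07e-05 and INPP4B 0.00095. The floor sets the variance, so the size of its p-values does not measure the spread between the 2 libraries of a line. With rows past the IgG thresholds the difference on the log2(sites + 1) scale fell from 4.25 to 2.81 for FOXP2, from 3.64 to 2.32 for CAMK1D and from 3.39 to 1.79 for INPP4B, which then did not pass (adjusted p = 0.051 in limma).

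These genes are long and almost free of clusters in MOLM13. FOXP2 spans 607439 bases of chromosome 7, SDK1 967749 bases of chromosome 7 and INPP4B 823376 bases of chromosome 4. Clusters of any fold over IgG in the immunoprecipitates numbered 1, 1, 104 and 78 in FOXP2, 0, 1, 152 and 126 in SDK1, 0, 0, 137 and 122 in PPFIA2 and 0, 2, 251 and 228 in KCND2. CAMK1D had the most in MOLM13, with 3, 10, 85 and 85. Of the 10, only NAV3, FOXP2, PID1, INPP4B and KCND2 had a 3' UTR site in any THP1 library, at most 2. Over all genes called with the floor as higher in THP1, the median gene length was 182072 bases, for MOLM13 116572, and for all tested genes 60004. Without the floor the medians were 95155 and 48404 bases, the latter below that of all tested genes.

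In MOLM13 the largest excess lay on NCALD, a neuronal calcium sensor, with 9 and 11 sites against none in THP1. ENPP2, which encodes autotaxin, had 7 and 8, and INHBA, the subunit of activin A, 5 and 5, of which 4 in each replicate were 3' UTR sites. The potassium channel gene KCNQ5 had 12, 13, 2 and 2, and AGAP1, an Arf GTPase regulator, 5, 4, 0 and 0. PRELID1, which moves lipids between mitochondrial membranes, had 4 and 4 against none, and the noncoding AC007100.1 and AC016205.1 had 5 and 4, and 3 and 4. Each of these 8 passed both fits on all rows. With rows past the IgG thresholds KCNQ5 fell from −2.17 to −1.5 and did not pass (adjusted p = 0.29 in limma). At a log2 fold of at least 4, KCNQ5, ENPP2 and AC016205.1 did not pass (adjusted p of 0.23, 0.12 and 0.056 in limma). NCALD, INHBA, AC007100.1 and PRELID1 passed in both settings. BCL11A, a zinc finger repressor, and ENTPD7 had 3 and 3 sites against none, and their adjusted p in limma was 0.073 with the variance floor. AGAP1, BCL11A and ENTPD7 had too few sites past the IgG thresholds to be tested there. Rows that only touch end to end counted as separate sites unless another library's row bridged them. With touching rows joined, PRELID1 moved from −2.32 to −1.58 and INHBA from −2.58 to −2.32 on the log2(sites + 1) scale, and both still passed.

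Clusters, which depend on binding as well as on RNA, differed among the MOLM13 genes. NCALD had 248, 291, 6 and 3, ENPP2 44, 48, 0 and 1, and BCL11A 74, 71, 1 and 0. PRELID1 had 13, 11, 8 and 7 and ENTPD7 4, 9, 5 and 7, with clusters but no enriched site in THP1.

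**Figure D2:**
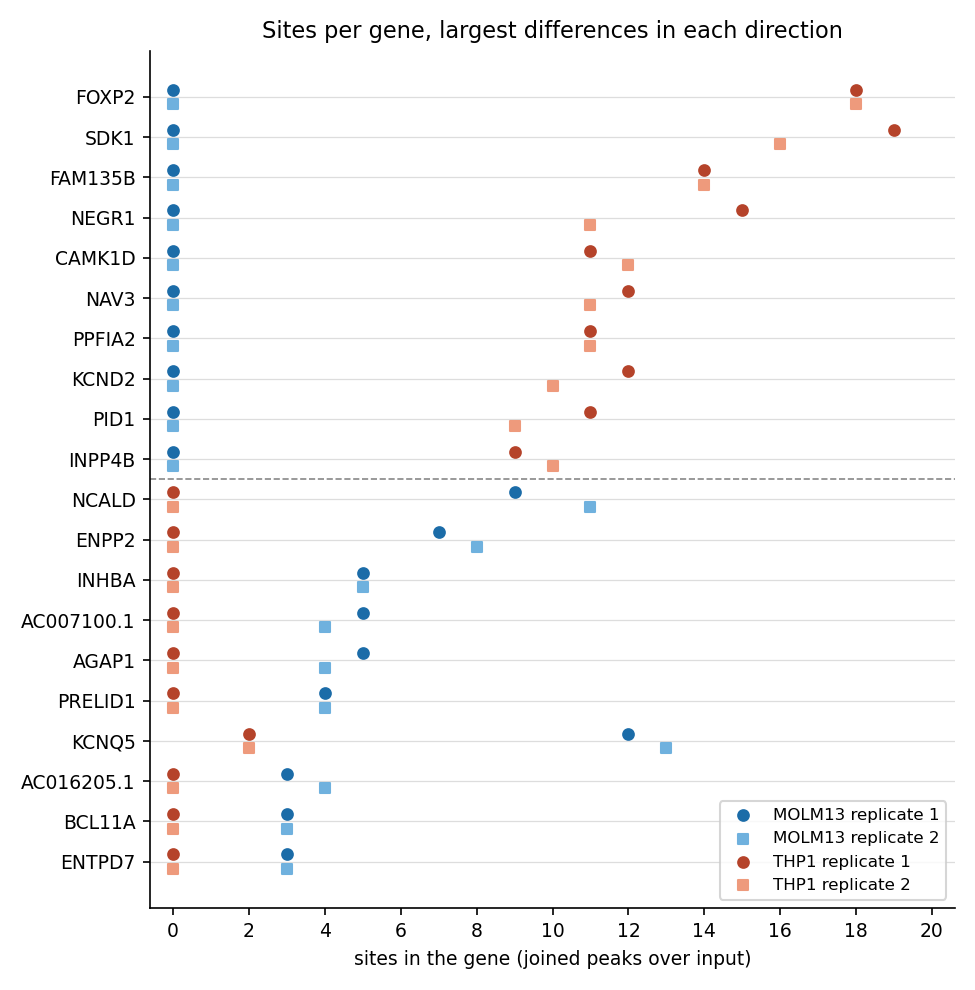
Number of sites in each of the 4 libraries (x axis) for the 10 genes with the largest differences in each direction, THP1 above the dashed line and MOLM13 below; circles are replicate 1 and squares replicate 2. The 10 upper genes have 0 sites in both MOLM13 libraries and 9 to 19 in THP1, and KCNQ5 is the one lower gene with sites in THP1.

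Some genes with clusters in both lines differed as well. Among 2362 genes with at least 10 clusters in each immunoprecipitate, a subset defined after the data were seen, 281 passed (11.9%), 221 of them higher in THP1. RLF, a zinc finger gene on chromosome 1, had 0, 0, 10 and 8 sites on 18, 17, 48 and 48 clusters. IPCEF1 had 0, 0, 8 and 8 sites, and ABHD17C and KLHL42 0, 0, 5 and 4, and 0, 0, 4 and 5. BTBD9 had 0, 0, 4 and 4 sites, and the noncoding MIR646HG had 1, 1, 11 and 9. The MIR646HG difference of 2.45 fell to 1.79 with rows past the IgG thresholds and to 1.66 at a log2 fold of at least 4. It passed under neither (adjusted p of 0.051 and 0.31 in limma), whereas IPCEF1 and BTBD9 passed under both. ABHD17C and KLHL42 had too few sites past the IgG thresholds to be tested there. RLF fell from 3.31 to 2.16 with rows past the IgG thresholds, and ABHD17C and KLHL42 from 2.45 to 1.5 and 1.58 at a log2 fold of at least 4, where ABHD17C did not pass (adjusted p = 0.33 in limma). In MOLM13, beside AGAP1 and KCNQ5, SMG9, a factor of nonsense-mediated decay, had 6, 7, 2 and 2 sites on 13, 15, 14 and 11 clusters. AHRR, the repressor of the aryl hydrocarbon receptor, had 8, 8, 4 and 4, but turned to THP1 with rows past the IgG thresholds (0.58 on the log2(sites + 1) scale). The SMG9 difference of −1.32 fell to −0.79 with rows past the IgG thresholds and to −0.61 at a log2 fold of at least 4, and passed under neither (adjusted p of 0.59 and 0.62 in limma).

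At the 6805 sites found in every library, the fold over input correlated better between replicates than between lines. Across sites Pearson's r was 0.763 in MOLM13 and 0.779 in THP1, and 0.644 to 0.667 for the 4 pairs between lines; sites are not independent replicates and all share the table minimum. Differences between a pair of libraries had an SD of 0.858 and 0.871 log2 units within lines and 1.06 to 1.07 between them. THP1 folds were higher by a median log2 of 0.37. That shift was 0.47 at 4426 distal intron sites and 0.08 at 1131 3' UTR sites. Median folds were 4.89, 4.71, 5.28 and 5.16 over all shared sites and 4.38, 4.50, 4.58 and 4.42 in 3' UTRs.

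**Figure D3:**
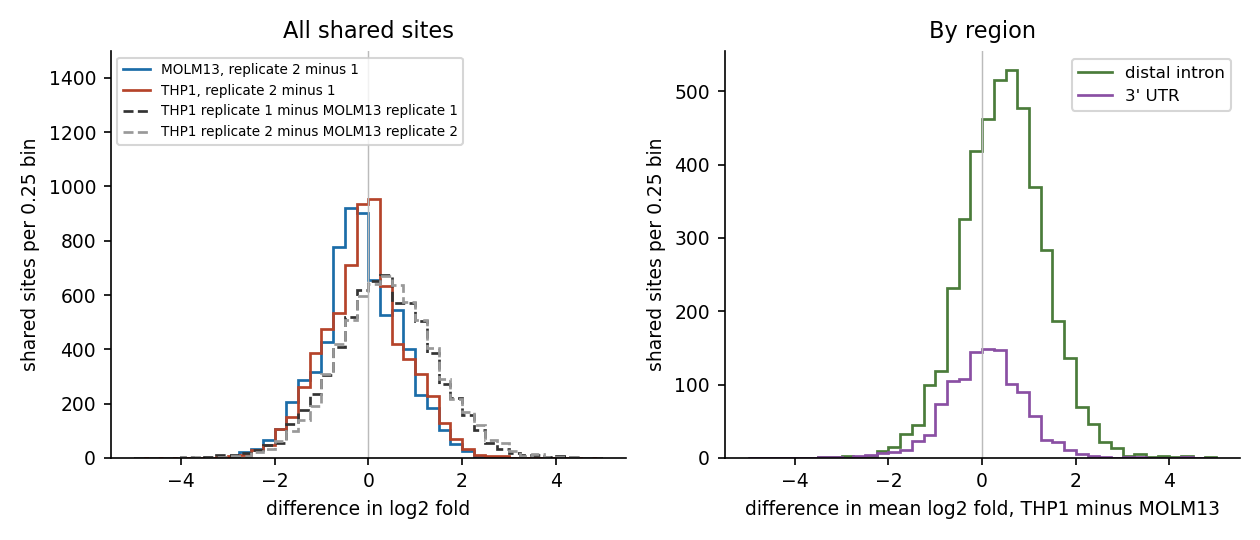
Left, number of shared sites per bin of the difference in log2 fold over input, between replicates of a line (solid) and between lines (dashed); the SD was 0.858 and 0.871 within lines and 1.06 to 1.07 between them. Right, number of shared sites per bin of the difference in line means for distal intron and 3' UTR sites, with medians of 0.47 and 0.08.

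Few single sites differed beyond the replicate spread. In limma with Benjamini-Hochberg adjustment 47 of the 6805 passed (0.691%), 40 with a higher fold in THP1 (0.588%) and 7 in MOLM13 (0.103%), and 1190 had an unadjusted p under 0.05. Libraries of the lines did not overlap at 3324 sites (48.8%). The count fell to 0 once each library was centred on its median, when the smallest adjusted p was 0.057, and to 0 without either MOLM13 replicate (949 and 811 sites at an unadjusted p under 0.05 in limma). The differences themselves moved unevenly. Centring gave 4.35 for PDE4D and −3.80 for CISH, against 4.77 and −3.38. Without MOLM13 replicate 1 or 2 the difference was 4.48 or 4.45 at IL1B, where the MOLM13 replicates were nearly equal, and 5.35 or 4.18 at PDE4D. Where those replicates lay further apart it moved more, to −1.87 or −4.43 at an ATXN10 site and −3.51 or −1.76 at an MRPL33 site. Without THP1 replicate 1 or 2 the count was 61 or 87. No difference of a named site changed sign under these settings.

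IL1B, CXCL8 and ONECUT2 were the 3 genes with a 3' UTR site called higher in THP1. IL1B, the fever-inducing cytokine, had log2 folds of 4.14, 4.11, 9.25 and 7.94 in its 3' UTR at chr2:112829921-112830054, a difference of 4.47 (SE 0.60, adjusted p = 0.0073 in limma). The neutrophil chemokine CXCL8 had 4.89, 5.15, 9.15 and 7.72 at chr4:73743066-73743193, a difference of 3.41 (SE 0.62, adjusted p = 0.038 in limma). With the mean of a library's rows in place of the highest, the CXCL8 difference was 2.79 and did not pass (adjusted p = 0.10 in limma). ONECUT2, a homeobox factor, had 5.64, 5.41, 8.61 and 8.72, a difference of 3.14, which was 0.92 (adjusted p = 0.45 in limma) when the mean of a library's rows replaced the highest. In each, both THP1 libraries stood more than 2 log2 units above both MOLM13 libraries. The chemokine CXCL2, at 4.68, 4.54, 7.08 and 6.87, and SPTLC2, an enzyme of sphingolipid synthesis, at 3.77, 3.08, 5.89 and 6.11, did not pass (adjusted p of 0.068 and 0.060 in limma), and CXCL2 fell from 2.37 to 1.06 with the mean of rows.

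Over IgG the MOLM13 libraries showed little at the IL1B and CXCL8 sites. The log2 fold over IgG was 0.57, 0.76, 5.42 and 6.93 at the IL1B site and 0.91, −0.29, 6.58 and 5.82 at the CXCL8 site. IL1B had 1, 1, 2 and 3 clusters and CXCL8 1, 1, 3 and 6. At IL1B and CXCL8 the MOLM13 values over input therefore lay on few clusters, which IgG nearly matched. The other 3' UTR sites differed in this. Over IgG, ONECUT2 had 2.33, 0.47, 5.36 and 5.14, CXCL2 1.70, 2.18, 3.84 and 5.87, and SPTLC2 3.79, 3.31, 5.23 and 6.11.

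The highest differences in THP1 were otherwise intronic. A distal intron site of PDE4D, a cAMP phosphodiesterase gene, had 4.21, 3.04, 8.42 and 8.35 at chr5:59771076-59771156, a difference of 4.77 (SE 0.58, adjusted p = 0.0058 in limma). RENBP, which encodes a renin-binding epimerase, had 4.11, 4.51, 8.67 and 8.94 at chrX:153937138-153937210, and PBX4, a homeobox gene, had 3.44, 3.08, 7.64 and 7.47. A noncoding intron site of AL603839.3 had 5.21, 4.61, 8.72 and 9.98. DZIP1L, SPEF2, UBAP1 and ST6GALNAC3 in distal introns and CCDC144NL-AS1 in a noncoding intron passed too, with differences from 3.41 to 4.22. MOLM13 values at these sites were mostly within 2 log2 units of the table minimum. With the mean of rows, UBAP1 and CCDC144NL-AS1 did not pass (adjusted p of 0.088 and 0.064 in limma). Of all 40 sites called higher in THP1, 31 (77.5%) had a log2 fold over IgG under 3 in both MOLM13 libraries, against 33.0% of all shared sites. In both THP1 libraries 35 (87.5%) reached 3, against 60.2%. Both folds rest on the same clusters of the same immunoprecipitates. The contrast therefore follows in part from how the 40 sites were chosen and is no separate evidence.

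CISH, PIM1 and SWAP70 were the 3 genes with a 3' UTR site called higher in MOLM13. CISH, a feedback inhibitor of STAT5, had 9.60, 10.58, 6.78 and 6.65 in its 3' UTR at chr3:50606933-50607163, a difference of −3.38 (SE 0.68, adjusted p = 0.045 in limma). PIM1, a survival kinase that STAT5 induces, had 8.97, 9.98, 6.21 and 6.30 at chr6:37174941-37175185, a difference of −3.22 (SE 0.65, adjusted p = 0.045 in limma). SWAP70, a regulator of the actin skeleton, had 6.81, 6.44, 3.88 and 4.04 in its 3' UTR. Both CISH and PIM1 stayed above 6 over input in each THP1 library. Over IgG, CISH had 5.03, 5.77, 1.84 and 3.77 and PIM1 5.88, 6.04, 2.16 and 3.62, under 3 in THP1 replicate 1. With the mean of rows the differences were −2.09 for CISH and −2.11 for PIM1, and neither passed (adjusted p of 0.17 and 0.16 in limma).

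The other 4 sites called higher in MOLM13 were intronic. SCAF8, which binds the tail of RNA polymerase II, had 5.89, 7.27, 3.07 and 3.35, and NFATC2, a calcium-regulated transcription factor, had 7.29, 6.55, 3.42 and 4.47. The NFATC2 difference fell from −2.98 to −1.72 with the mean of rows and did not pass (adjusted p = 0.24 in limma). The noncoding AC125603.2 had 7.06, 7.04, 4.37 and 4.16, and EPHA1-AS1 had 7.56, 7.21, 4.38 and 4.93. ATXN10 (8.58, 6.01, 4.51 and 3.77), ZYG11A (8.0, 7.56, 5.75 and 3.90) and MIR34AHG (8.56, 6.49, 4.57 and 4.87) did not pass, nor did MRPL33 (5.85, 7.59, 4.50 and 3.67) and MIDEAS (5.77, 6.43, 3.44 and 3.77) among 3' UTR sites. Their adjusted p ranged from 0.063 to 0.088 in limma. With the mean of rows, 0 sites were called higher in MOLM13 and 8 in THP1. SCAF8, EPHA1-AS1, AC125603.2 and SWAP70 then did not pass either (adjusted p of 0.053, 0.078, 0.13 and 0.18 in limma).

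**Figure D4:**
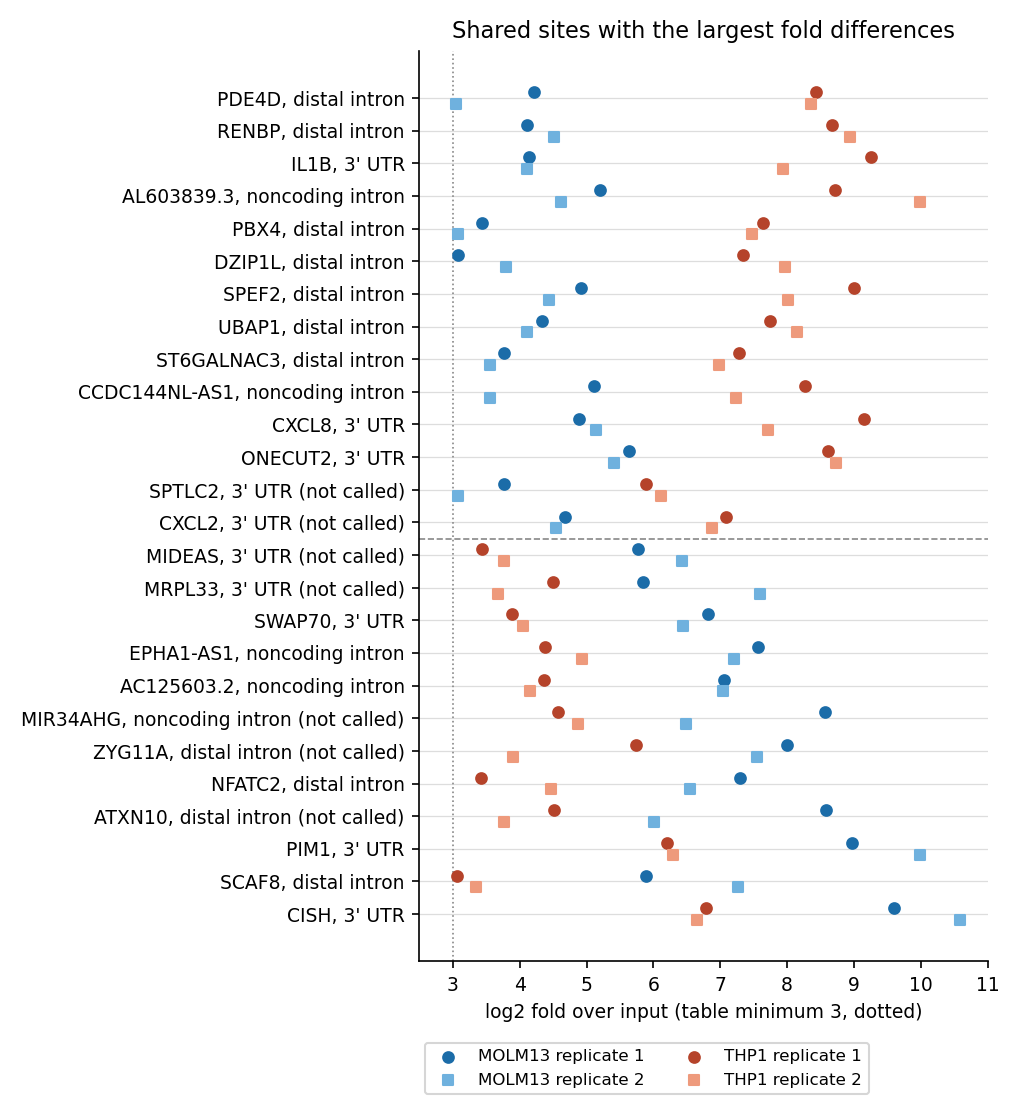
Log2 fold over input in each of the 4 libraries (x axis) at the shared sites with the largest differences, THP1 higher above the dashed line and MOLM13 higher below; circles are replicate 1, squares replicate 2, and the dotted line is the table minimum of 3. Sites that did not pass are marked as not called and were chosen among sites whose libraries did not overlap between the lines. The separation of the lines in the figure therefore follows largely from how the sites were chosen.

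The strongest shared sites, chosen after their values were seen, were alike in the lines. A distal intron site of COPA, a coat protein gene of vesicles, had 9.60, 9.20, 9.51 and 10.08. CSTF3, a cleavage factor that forms mRNA ends, had 9.34, 9.01, 9.63 and 9.35 in a distal intron, and MTHFD1L, an enzyme of folate metabolism, 9.67, 9.34, 8.75 and 9.03. In 3' UTRs the site of CERT1, a ceramide carrier, had 8.30, 7.91, 9.41 and 9.68, and that of the histone methyltransferase NSD2 7.95, 7.81, 8.74 and 9.05. Their differences between lines were 1.44 and 1.02 and did not pass (adjusted p of 0.30 and 0.44 in limma).

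The place of the sites within genes differed little more between lines than between replicates. For 867 genes with at least 3 sites in each library the mean relative position, 0 at the gene start and 1 at its end, had medians of 0.495, 0.499, 0.488 and 0.489. Across genes the SD of the difference between a pair of libraries was 0.080 and 0.070 within lines and 0.091 to 0.095 between them, and the line means of 516 genes (59.5%) lay within 0.05 of each other. In limma 31 passed (3.58%), 13 further 3' in THP1 (1.5%) and 18 further 5' (2.08%). The limma count was 0 without either MOLM13 replicate, in the 314 genes with at least 5 sites per library, and at a log2 fold of at least 4, with 53 of the 314 at an unadjusted p under 0.05, and it was 56 or 67 without THP1 replicate 1 or 2.

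Among those that passed, MAPK6, an atypical MAP kinase gene, had mean positions of 0.480, 0.452, 0.729 and 0.726, and PHF21A, a histone reader gene, 0.321, 0.321, 0.526 and 0.555. APP, the amyloid precursor gene, had 0.361, 0.344, 0.534 and 0.534, and LRIG2 0.292, 0.292, 0.470 and 0.469. In the other direction DNAAF5, a dynein assembly factor, had 0.675, 0.721, 0.246 and 0.210, PTPRE, a receptor-type phosphatase, 0.853, 0.853, 0.479 and 0.479, and FOXN3, a forkhead repressor, 0.758, 0.792, 0.488 and 0.514. LINC01515 had 0.528, 0.528, 0.361 and 0.348. With 1 variance trend shared by all genes, 57 genes passed, 7 of them among the 31, and APP, LRIG2 and LINC01515 did not (adjusted p of 0.078, 0.056 and 0.093, from a normal test on the trend that limma fitted). These means rest on few sites, 5, 4, 7 and 11 in MAPK6 and 4, 3, 3 and 3 in DNAAF5.

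Sites listed in both replicates of a single line were seldom empty in the other. Of the 914 sites of MOLM13 alone, 73.1% (Wilson 95% interval 70.1% to 75.9%) overlapped a cluster of any fold in both THP1 immunoprecipitates, and 15.9% in neither. Of the 2966 sites of THP1 alone, 71.0% (69.3% to 72.6%) had a cluster in both MOLM13 immunoprecipitates, and 18.1% in neither. The intervals cover counting error only. In 55.9% of the MOLM13 sites and 54.4% of the THP1 sites, the same gene had an enriched site elsewhere in both libraries of the other line.

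**Figure D5:**
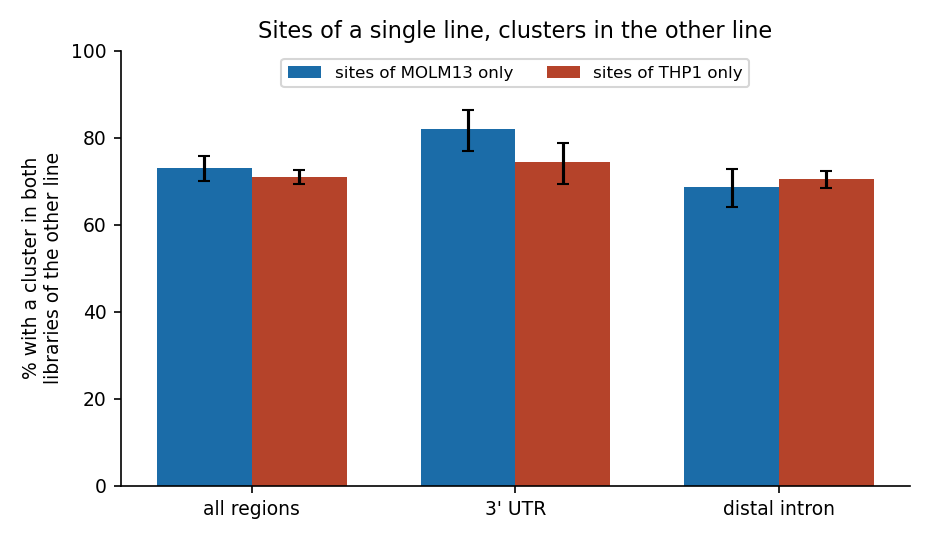
Percentage of the sites found in both replicates of a single line that overlap a cluster of any fold in both immunoprecipitates of the other line, for all regions, 3' UTRs and distal introns, with Wilson 95% intervals as error bars. All bars lie between 68.6% and 82.1%.

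CISH held the strongest 3' UTR site of MOLM13 alone in a gene that THP1 also bound. At chr3:50607206-50607258, beside the shared site, the log2 fold was 6.0 and 5.97, and no THP1 cluster overlapped it. FAM216A followed with 5.45 and 5.30, and DVL1, a Wnt signalling gene, with 4.81 and 5.33. Among genes with no site in THP1, PTPN3, a tyrosine phosphatase gene, had 7.02 and 6.67 and INHBA 5.40 and 5.88, both at sites with a cluster in both THP1 libraries. Outside 3' UTRs, SRBD1 had 6.37 and 5.86 and CSNK1G2 5.41 and 5.61.

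In THP1 the same ranking gave PLXNA3, a semaphorin receptor gene, with 4.81 and 5.84, ARCN1, a vesicle coat gene, with 4.69 and 4.72, and CELF2, an RNA-binding protein, with 5.10 and 4.61. The chemokine CXCL1 had 6.74 and 7.10 in its 3' UTR at chr4:73870643-73870794, and ZNF611, a zinc finger gene, had 6.70 and 7.53, with no cluster at either site in MOLM13. GPSM1 had 7.35 and 6.49 and CDYL2 7.07 and 6.39, where MOLM13 had a cluster in 1 and in both libraries. Intronic sites reached higher folds. MACF1, a cytoskeletal linker, had 7.86 and 8.4, and ARHGAP4 7.60 and 7.74, in genes with other enriched sites in MOLM13.

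Annotated miRNA hairpins gave another direct look at sequence. Sites overlapped 3 RefSeq hairpins, those of miR-222, miR-16-2 and miR-27a, and 4 mature sequences inside these sites are shown with the seed, bases 2 to 8, in capitals.
hsa-miR-222-3p: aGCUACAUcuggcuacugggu
hsa-miR-222-5p: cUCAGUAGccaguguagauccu
hsa-miR-16-5p: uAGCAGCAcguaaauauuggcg
hsa-miR-27a-3p: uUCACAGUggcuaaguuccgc
No seed was common to these miRNAs. The miR-222 site at chrX:45747029-45747098 covered both arms and was listed in all 4 libraries, at 4.89, 3.64, 4.09 and 4.32. The miR-16-2 site at chr3:160404752-160404819 was listed in THP1 only, at 4.60 and 4.63. The miR-27a site at chr19:13836447-13836468 was almost exactly the 3p arm at 13836447 to 13836467, and was listed in 1 replicate of each line, at 4.01 in MOLM13 and 3.77 in THP1. Where a value over IgG was matched, it was under 3 at all 3 sites.

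The gene lists below are read against all tested genes, of which 11.2% were called higher in THP1 and 3.47% in MOLM13 without the variance floor, and 5.48% and 0.685% with it. Reported targets of the ZFP36 family were found in both lines. Sites in both replicates were seen for 17 of 30 in MOLM13 and 21 of 30 in THP1, 16 of them in all 4 libraries. Of 17 tested for sites per gene, 4 were higher in THP1 (CXCL1, CXCL2, KLF2 and VEGFA) and 1 in MOLM13 (PIM1), each with replicate counts that were identical, and 0 with the variance floor. The median difference in fold at the 22 shared 3' UTR sites of the list was −0.14, against 0.08 over all shared 3' UTR sites. Of the TIS11 family itself, the ZFP36L2 mRNA had 2 sites in every library, as did ZFP36. The strongest ZFP36L2 3' UTR site had 6.54, 7.81, 6.94 and 7.69 and that of ZFP36 7.81, 7.47, 7.01 and 8.11, with no separation of the lines.

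Among RAS-MAPK feedback genes 15 of 29 were tested, and PHLDA1 (0, 0, 3 and 2 sites) and SPRED1 (0, 0, 2 and 2), an inhibitor of RAS, passed as higher in THP1 without the variance floor. With it NF1 (5, 3, 13 and 9) and RASA1 (6, 4, 11 and 11), GTPase activators of RAS, passed instead, with adjusted p of 9.1e-05 and 0.0017 in limma. Such counts of 2 of 15 stand beside 11.2% of all tested genes without the floor and 5.48% with it. In the list of STAT5 and cytokine receptor signalling 9 of 26 were tested, and CISH and PIM1, each with 2, 2, 1 and 1 sites, passed as higher in MOLM13 without the floor. The receptor gene FLT3, with 11, 12, 6 and 5 sites on 67, 65, 30 and 31 clusters, passed with the floor only (adjusted p = 0.0030 in limma). The 14 shared sites of this list had a median fold difference of −0.22 against 0.37 over all shared sites, and the 5 in 3' UTRs, CISH and PIM1 among them, −1.65 against 0.08.

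Monocyte maturation markers were thin. Of 32, 4 were tested, and VCAN, the proteoglycan versican, passed both fits with 0, 0, 4 and 6 sites. ITGAX, an integrin of mature myeloid cells, had 0, 0, 2 and 3 sites and passed without the floor only, and ITGAL, a leukocyte integrin gene, had 14, 14, 5 and 3 and passed with the floor only. Myeloid transcription factors, with 12 of 30 tested, had 0 calls in limma in either fit. IRF8, a monocyte factor, had 1, 3, 2 and 2 sites, and the repressor gene ZEB2 had 6, 5, 5 and 5.

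Of 27 other binders of AU-rich elements, 19 were tested and 3 called higher in THP1, 1 in MOLM13, without the floor, with a median difference of 0.29 on the log2(sites + 1) scale against 0 over all tested genes. IGF2BP1, an mRNA-stabilising protein, passed both fits with 0, 0, 4 and 3 sites. PUM2 (6, 6, 10 and 11) and CELF2 (1, 1, 3 and 3) passed without the floor and IGF2BP2 (5, 3, 9 and 9) with it, while CPEB2 (2, 2, 1 and 1) was higher in MOLM13 without it. At 37 shared sites the median fold difference was 0.75, against 0.37 over all shared sites. The mRNA decay and Argonaute list, with 23 of 38 tested, had a single call, TNRC6A at 1, 1, 2 and 2 sites, which the floor removed.

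Among cell cycle regulators the calls lay on the MOLM13 side. Sites in both replicates were seen for 24 of 35 in MOLM13 and 18 of 35 in THP1, and of 19 tested CDK4, E2F2 (each 2, 2, 1 and 1) and E2F7 (2, 2, 0 and 0), genes of the entry into S phase and its control, were higher in MOLM13 without the floor and 0 with it. The 12 shared 3' UTR sites of the list had a median fold difference of −0.76, against 0.08 over all shared 3' UTR sites. In the KMT2A-fusion list 19 of 30 were tested, with MLLT1 (2, 2, 1 and 1) called without the floor and FLT3 with it, and NSD2, DOT1L and other members not called. Apoptosis regulators had 0 calls among 10 tested in either limma fit, BCL2 having 4, 5, 3 and 3 sites. Hypoxia and metabolic genes, 13 of 30 tested, had VEGFA (3, 3, 4 and 4) and PFKFB4 (1, 1, 3 and 3) called higher in THP1 and SLC7A5 (6, 6, 5 and 5) in MOLM13, all without the floor only. Immediate early genes, 7 of 26 tested, had KLF2 and MAFF, each 1, 1, 2 and 2, called without the floor only, and FOS was bound once in each library at 7.13, 7.41, 6.91 and 6.40. In the cytokine and NF-kB list 7 of 30 were tested, of which CXCL1 and CXCL2 were called higher in THP1 and TNFAIP3, a brake on NF-kB with 2, 2, 1 and 1 sites, in MOLM13, all without the floor only. Lymphoid markers had 2 of 25 tested, with BCL11A called without the floor, and erythroid and megakaryocytic markers 1 of 25 tested, and among the latter the transferrin receptor gene TFRC had 4, 3, 9 and 6 sites and passed with the floor (adjusted p = 0.046 in limma).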

How the data were processed

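Groups and replicate numbers came from the labels. Per the submitters' processing notes, cutadapt 1.14, STAR 2.5.0c, Picard 2.6.0 and edgeR were used; of the peak caller, read depth and fold scaling, the sources used here give nothing. The authors' deposited tables give, for each immunoprecipitate by itself, the log2 fold over input and the −log10 p of peaks with both at least 3, on hg38 contig names, and their deposited IgG lists give the same values over IgG for every cluster. Whether both THP1 tables rest on the single THP1 input is not stated. THP1 tables and IgG lists are numbered differently and were tied by identical cluster coordinates.

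Rows of all tables sharing at least 1 base on a strand were joined by single linkage. A library's value at a site is its highest log2 fold there. Rows with several gene names, joined by a bar (300 to 419 per table), were left out of per-gene counts. Current symbols are printed where RefSeq pairs them (6261 of 6554 names matched), and gene lengths, clusters per gene, promoter windows and miRNAs are RefSeq's on GRCh38.p14. Sites per gene (log2 of the count plus a pseudocount of 1), fold and position were tested with limma 3.58.1 (lmFit, eBayes with trend, all 4 libraries, no covariate, Benjamini-Hochberg, adjusted p under 0.05). The variance floor for sites per gene was added after the calls were seen, and both fits are given. P-values with the floor rest largely on the set variance and not on the replicates, and can be smaller than without it. The position fit is the same limma fit, and its alternative with 1 variance trend gives each gene the variance of the trend alone.

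Named genes are the 10 largest differences in each direction among those that passed (position 4, 3' UTR sites 5). Sites of a single line were named by their lower replicate, and list members by strength or call. Where fewer passed, the next were named by size among those whose libraries did not overlap between the lines. Some items are not reported here. The members and lists were chosen with earlier results of these data known. The correlation of replicate differences between the lines was 0.013, −0.0044 and −0.0058 for the 3 tests, so over all features no common effect of the replicate number was seen. That does not exclude one on single features, and NEAT1, with 7, 51, 11 and 68 sites, was higher in replicate 2 of both lines. Other software was R 4.3.3, Python 3.11.15, pandas 2.3.3, NumPy 2.4.6, SciPy 1.17.1 and matplotlib 3.10.9.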

Additional observations from a re-analysis of the deposited data

Results flagged for a closer look

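The fold over input differed between the lines in limma at 19 of the named shared sites. In THP1 minus MOLM13 the log2 differences were 4.77 at the PDE4D, 4.50 at the RENBP and 4.47 at the IL1B site, 4.44 at AL603839.3, 4.30 at PBX4 and 4.22 at DZIP1L. They were 3.83 at SPEF2, 3.72 at UBAP1, 3.47 at ST6GALNAC3, 3.41 at both CCDC144NL-AS1 and CXCL8, and 3.14 at ONECUT2. Toward MOLM13 they were −3.38 at CISH, −3.37 at SCAF8, −3.22 at PIM1, −2.98 at NFATC2, −2.79 at AC125603.2, −2.72 at EPHA1-AS1 and −2.67 at SWAP70. Of the 40 sites called higher in THP1, 31 were under 3 over IgG in both MOLM13 libraries, against 33.0% of all shared sites. Of the 7 called higher in MOLM13, 3 were under 3 in both THP1 libraries, against 9.39% of all shared sites. Folds over IgG and over input share the same immunoprecipitates, so these shares follow in part from the choice of sites. The part of IgG signal, input level and RNA level in the differences between the lines was not tested.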

How the results depend on the processing

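The read depth is unknown and the tables are cut at a log2 fold of 3, so absence from a table is no absence of binding, and 2 libraries per line limit every test. Calls of sites per gene (619 in limma) were 261 with the variance floor, 299 with at least 8 sites, 281 with at least 10 clusters, 1287 with no filter, 231 with rows past the IgG thresholds, 317 at a log2 fold of at least 4, 403 scaled to library totals and 1108 to 2202 without 1 replicate. Calls of fold (47) were 0 with centred libraries (979 sites at an unadjusted p under 0.05), 0 of 1519 with rows past the IgG thresholds (163 unadjusted), 8 with the mean of rows, 11 with an overlap of at least 50%, 25 at a log2 fold of at least 4, 9 of 1927 for values off the step, and 0 to 87 without 1 replicate. Calls of position (31) were 57 with 1 variance trend, 2 of 79 with rows past the IgG thresholds, 0 of 314 with at least 5 sites (53 unadjusted), 0 of 150 for sites not in all libraries (13 unadjusted), 0 of 427 at a log2 fold of at least 4 (57 unadjusted) and 0 to 67 without 1 replicate. With the replicate number as a block, calls were 477 for sites per gene, 300 for fold and 0 for position (131 unadjusted). Whether equal replicate numbers mark paired samples was not tested beyond the correlation over all features. With rows past the IgG thresholds the region differences were −13.0 (3' UTR) and 15.2 (distal intron) points, from −3.40 to −5.38 and 4.05 to 6.14 without 1 replicate. Overlap within lines was 76.7% with an overlap of at least 50% and 75.6% at a log2 fold of at least 4. The shares of single-line sites with a cluster in the other line were 67.2% (MOLM13) and 52.7% (THP1) for clusters above IgG, and 81.0% and 77.6% at a log2 fold of at least 4. AHRR alone among named genes turned direction, to 0.58 on the log2(sites + 1) scale with rows past the IgG thresholds. With rows that touch end to end joined as well, limma calls were 625 for sites per gene and 45 for fold. The cause of these changes was not tested. Settings of the variance floor, the clusters per gene, the single variance trend, the sites not in all libraries and the values off the step were chosen after seeing the data.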

Other observations

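Other strong sites of both lines were chosen after their values were seen. MAPKAPK2, a kinase downstream of p38 MAP kinase that phosphorylates the ZFP36 protein, had a distal intron site with log2 folds over input of 8.21, 9.21, 10.10 and 9.23 (MOLM13 replicates, then THP1). In 3' UTRs, DLG4, a synaptic scaffold gene, had 7.74, 7.92, 9.88 and 8.72, MTCL2 had 7.98, 8.25, 9.39 and 8.59, and UBE2W, a ubiquitin-conjugating enzyme gene, had 7.52, 7.98, 7.99 and 7.99. None of these 4 sites passed the limma comparison of the lines, with adjusted p from 0.30 at DLG4 to 0.87 at UBE2W.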
